A study of Drosophila melanogaster with 36 samples.

Results

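The 10 genes that encode the nicotinic acetylcholine receptor subunits of Drosophila melanogaster, nAChRalpha1 to nAChRalpha7 and nAChRbeta1 to nAChRbeta3, were followed in sorted clock neurons. The genes were taken as a named family from the annotation, a choice made with earlier results of these data known, and hold 32 of the 30485 transcripts and 10 of the 13817 genes in the deposited abundance table. All 36 libraries were RNA-seq libraries of LNv neurons, the ventral lateral clock neurons of the brain, from female flies of the w1118 background whose genotype field reads WT. The cells carried membrane-bound GFP driven by Pdf and were collected by fluorescence, so the Pdf driver defines the gate. LC25 flies were kept at 25 °C on food with 0.5x sucrose and yeast. HC18 flies were kept at 18 °C on 1.5x food. HC25 flies were kept at 25 °C on 1.5x food. Each condition had 12 libraries, sampled every 2 h from ZT02 to ZT24 (zeitgeber time, in hours), and 1 library stood for each time and condition. The pairing of codes with foods was read from the code and the design text, age is not given, and the labels do not say which animals or how many went into each library. P-values therefore measure only the spread between these libraries, which may be technical.

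Nicotinic receptors are pentameric cation channels of the Cys-loop family that open when acetylcholine binds. In the insect brain acetylcholine is the main fast excitatory transmitter, and LNv neurons respond to it through nicotinic receptors. Alpha subunits carry the adjacent pair of cysteines of the agonist site, beta subunits lack it, and the mix of subunits sets the properties of a channel. In the Ensembl annotation, used for names and structure since the authors' build is not stated, nAChRalpha1, nAChRalpha2 and nAChRbeta2 lie next to each other on arm 3R. nAChRalpha5, nAChRalpha6 and nAChRbeta3 lie on 2L, nAChRalpha4 and nAChRbeta1 on 3L, and nAChRalpha3 and nAChRalpha7 on X.

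Values are TPM (each transcript's share of its library, corrected for transcript length), and the sequencing depth is unknown. Levels of different genes are set beside each other per length, which assumes that reads spread evenly along each transcript. That was not tested. The labelled cell type was checked first. Pdf, the neuropeptide gene of LNv neurons, reached 202908 to 300636 TPM in LC25, at least 222123 TPM in HC18 and at most 288443 TPM in HC25. The HC25 library of ZT06 held the least Pdf, 76779 TPM. In bulk libraries like these, fewer cells of a type and less RNA per cell cannot be told apart. The glial transcription factor gene repo stayed at or below 1.70 TPM in LC25, 1.35 TPM in HC18 and 9.92 TPM in HC25, with the highest value in the HC25 library of ZT08. The 8 glial markers summed to 1306 TPM in that library and to 703 TPM in HC25 at ZT06, against medians of 22.7 TPM in LC25, 35.1 TPM in HC18 and 31.2 TPM in HC25. Photoreceptor markers summed to 1006 TPM in LC25 at ZT18 and to at most 128 TPM in any other library. In 4 HC18 libraries (ZT06, ZT08, ZT10 and ZT22) the abundant transcript fmt lay between 121 and 1603 TPM, against at least 6458 TPM in the other 32. Mitochondrially encoded transcripts held 5.08% ± 1.68 of TPM in those 4 (SD, n = 4) and 9.91% ± 2.07 in the other 8 HC18 libraries (SD, n = 8), against 13.9% ± 3.06 in LC25 and 14.04% ± 2.56 in HC25 (SD, n = 12 each). The abundant transcript trol averaged 7192 TPM in those 4 and 21247 TPM in the other 8, against 28329 TPM in LC25 and 22566 TPM in HC25. Differences of HC18 are therefore also given without the 4 libraries where that ends a call. The markers of Kenyon cells and of other clock neurons were not followed in that fit.

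LNv neurons held transcripts of 9 of the 10 subunits. Together the 10 subunits summed to a median of 814 TPM in LC25 (range 550 to 905), 802 TPM in HC18 (635 to 938) and 789 TPM in HC25 (312 to 915). The ranges of the 3 conditions overlapped from 635 to 905 TPM. The low end of HC25 was the ZT06 library, which was also the lowest HC25 library for each of the 9 measured subunits. In the same library the synaptic vesicle gene nSyb stood at 302 TPM, against a HC25 median of 682 TPM. No other library was the lowest of its condition for more than 5 subunits, the number reached by LC25 at ZT02.

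nAChRbeta1 was the most abundant subunit in each of the 36 libraries. Its level ranged from 175 to 304 TPM in LC25 (median 263), from 229 to 343 TPM in HC18 (median 290) and from 111 to 323 TPM in HC25 (median 289). It made up 34.3% ± 2.20 of the summed subunit TPM in LC25, 36.2% ± 1.70 in HC18 and 36.1% ± 2.84 in HC25 (SD, n = 12 each). The next levels were those of 3 further genes: nAChRalpha6, the target of the spinosyn insecticides, averaged 117 TPM, nAChRalpha7 averaged 93.0 TPM and nAChRbeta2 averaged 68.0 TPM over the 36 libraries. nAChRalpha6 lay above nAChRalpha7 in 27 of 36 libraries, and nAChRalpha7 above nAChRbeta2 in 29 of 36. In HC18 the order of the last pair did not hold: nAChRalpha7 was the higher gene in 6 of 12 libraries, at a mean of 78.2 TPM against 81.6 TPM for nAChRbeta2. In LC25 it was the higher gene in 11 of 12 libraries and in HC25 in 12 of 12.

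Averaged over all conditions the lower group ran from nAChRalpha5, at a mean of 55.8 TPM, through nAChRalpha3 at 47.2 TPM, nAChRalpha2 at 39.9 TPM and nAChRalpha1 at 36.8 TPM to nAChRalpha4 at 30.1 TPM. Within it nAChRalpha3 exceeded nAChRalpha2 in 19 of 36 libraries, and nAChRalpha2 exceeded nAChRalpha1 in 19 of 36. These neighbours did not differ beyond their spread. The order also changed with the condition. nAChRalpha5 exceeded nAChRalpha3 in 9 of 12 LC25, 5 of 12 HC18 and 11 of 12 HC25 libraries, and in HC18 its mean was 56.6 TPM against 65.0 TPM for nAChRalpha3. nAChRbeta2 exceeded nAChRalpha5 in 5 of 12 LC25, 12 of 12 HC18 and 11 of 12 HC25 libraries. The alpha subunits together took 57.8% ± 2.22 of the summed subunit TPM in LC25, 53.3% ± 2.27 in HC18 and 55.2% ± 2.81 in HC25 (SD, n = 12 each).

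nAChRbeta3 stood apart at the floor. It was listed at 0 in 4 LC25, 6 HC18 and 4 HC25 libraries, and its highest value was 1.66 TPM, in HC25 at ZT08. All 1532 nt of its annotated exons lie within exons of Ets21C on the opposite strand, a gene that averaged 0.591 TPM. Whether the quantification used strand is not stated, so reads of the pair cannot be told apart. The gene was below the mean of 1 TPM required for testing and enters no test, which leaves 9 tested subunits.

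**Figure D1:**
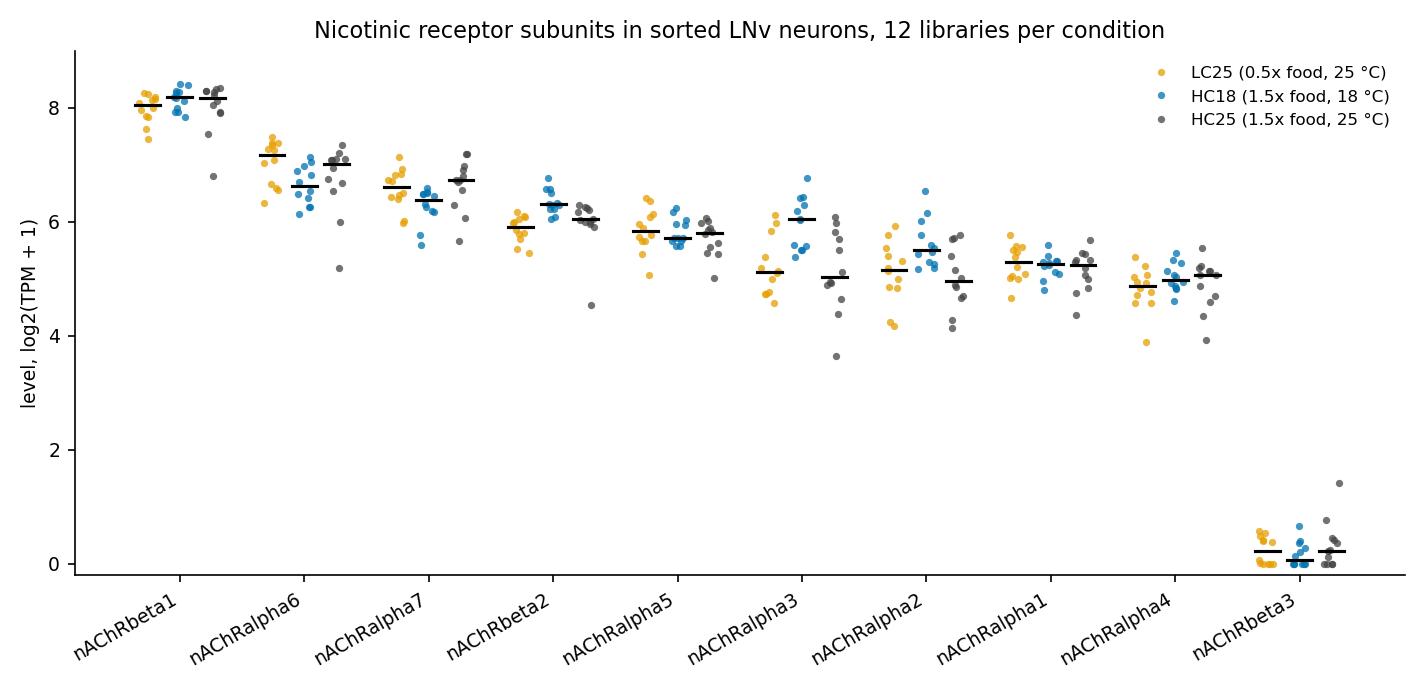
Level of each subunit gene on the log2(TPM + 1) scale, with genes ordered by their mean over 36 libraries, points for libraries and black bars for the median of the 12 libraries of LC25, HC18 and HC25. nAChRbeta1 is highest throughout, nAChRbeta3 lies near 0, and nAChRalpha3 and nAChRbeta2 sit higher in HC18 than in the other 2 conditions.

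Transcript models split several of these levels between long and short coding regions, as assigned by the authors' quantification. For nAChRbeta1, nAChRbeta1-RA codes for 521 residues and nAChRbeta1-RB for 64 residues, too few for the full channel subunit. nAChRbeta1-RB made up 41.3% ± 6.16 of the gene's TPM in LC25, 47.8% ± 5.60 in HC18 and 46.9% ± 5.21 in HC25 (SD, n = 12 each). With nAChRbeta1-RA alone, at a mean of 146 TPM, the gene still exceeded nAChRalpha6 in 33 of 36 libraries. nAChRalpha4-RD, which codes for 371 residues, held 61.0% of its gene's TPM, and the models that code for 539 residues, nAChRalpha4-RC and nAChRalpha4-RH, held 33.3% and 5.11%. Counted over transcripts whose coding length reached 90% of the gene's longest, nAChRalpha4 averaged 11.6 TPM and lay below nAChRalpha1 in each of 36 libraries. In nAChRbeta2 the shorter model, nAChRbeta2-RB with 304 residues, held 6.52%. nAChRalpha1 was carried almost whole by nAChRalpha1-RC, with 99.1% of its TPM. The libraries were amplified with T7 RNA polymerase, and its effect on the split between transcript models was not tested. Nor was its effect on the order of the genes, whose models differ in length. nAChRbeta1-RA has 2460 nt, nAChRalpha2-RB 2319 nt and nAChRalpha1-RC 11027 nt.

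Transcript levels of nAChRalpha3 and nAChRalpha6 followed the time of day, with more RNA in the second part of the cycle. Of the 9 tested subunits these 2 passed the test of a 24 h rhythm shared by the 3 conditions (limma with Benjamini-Hochberg adjustment over 8649 genes, called below 0.05). Of all genes tested 23.9% passed, so the subunits' share lies near the background. The median log2 amplitude (mean to peak of the fitted cosine) was 0.21 over the 9 subunits and 0.20 over all genes tested.

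nAChRalpha3, an alpha subunit, had its highest level at ZT22 in each condition, 68.8 TPM in LC25, 108 TPM in HC18 and 67.0 TPM in HC25. At ZT22 the model nAChRalpha3-RB held 1.95 TPM in LC25, 48.2 TPM in HC18, a library low in fmt, and 16.8 TPM in HC25. The main model, nAChRalpha3-RC, was highest at ZT22 in LC25 (66.8 TPM), ZT24 in HC18 (77.2 TPM) and ZT18 in HC25 (55.6 TPM). The gene's lowest level was 22.8 TPM at ZT02 in LC25, 40.7 TPM at ZT14 in HC18 and 11.5 TPM at ZT06 in HC25. Averaged over the 3 conditions it stood at 81.1 ± 22.9 TPM at ZT22 and at 28.2 ± 18.1 TPM at ZT06 (SD, n = 3). The later times were the high ones. From ZT14 to ZT24 it averaged 48.8 TPM in LC25, 77.8 TPM in HC18 and 49.7 TPM in HC25, and from ZT02 to ZT12 it averaged 28.2 TPM in LC25, 52.1 TPM in HC18 and 26.5 TPM in HC25. The values of these windows overlapped in each condition. The fitted curve had a log2 amplitude of 0.56 ± 0.09 (SE, n = 36), a 2.18-fold range and a peak at ZT19.6 (limma adjusted p = 4.69e-05).

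nAChRalpha6 peaked slightly earlier on the fitted curve. Its highest level was 178 TPM at ZT20 in LC25, 139 TPM at ZT18 in HC18 and 163 TPM at ZT18 in HC25. The lowest was 79.4 TPM at ZT02 in LC25, 69.2 TPM at ZT10 in HC18 and 35.7 TPM at ZT06 in HC25. In HC18 the lowest of the 6 values from ZT14 to ZT24 was 103 TPM and the highest of those from ZT02 to ZT12 was 92.0 TPM. In HC25 the matching values were 134 and 122 TPM, so that the windows did not overlap in either condition, while in LC25 they were 95.5 and 162 TPM and did overlap. The log2 amplitude was 0.45 ± 0.08 (SE, n = 36), which is a 1.86-fold range, with a peak at ZT18.5 (limma adjusted p = 0.000103). Both shared rhythms kept an adjusted p below 0.05 in each alternative tried, including each of the 36 fits without 1 library.

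The other 7 tested subunits did not pass. nAChRalpha2 had its fitted peak at ZT6.81, with an amplitude of 0.31 ± 0.10 (SE, n = 36; limma adjusted p = 0.0673). Its adjusted p ranged from 0.00307 to 0.233 over 44 alternatives, and it was called without the HC25 library of ZT06 (adjusted p = 0.00774) and without the LC25 libraries of ZT04 (0.0491), ZT06 (0.0402) or ZT24 (0.0488). nAChRbeta2 had an amplitude of 0.21 ± 0.07 and a peak at ZT15.7 (adjusted p = 0.0700). That gene was called without the HC18 library of ZT12 (0.0451), or the HC25 libraries of ZT06 (0.0457) or ZT24 (0.0435), with a range from 0.0435 to 0.238 over 44 alternatives. The count of rhythmic subunits was thus 4 without HC25 at ZT06. The amplitude was 0.21 for nAChRalpha4, 0.17 for nAChRalpha7, 0.14 for nAChRbeta1, 0.09 for nAChRalpha5 and 0.02 for nAChRalpha1, with adjusted p-values from 0.126 to 0.977. At an unadjusted p below 0.05, 5 of the 9 subunits and 3178 of the 8649 genes passed.

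**Figure D2:**
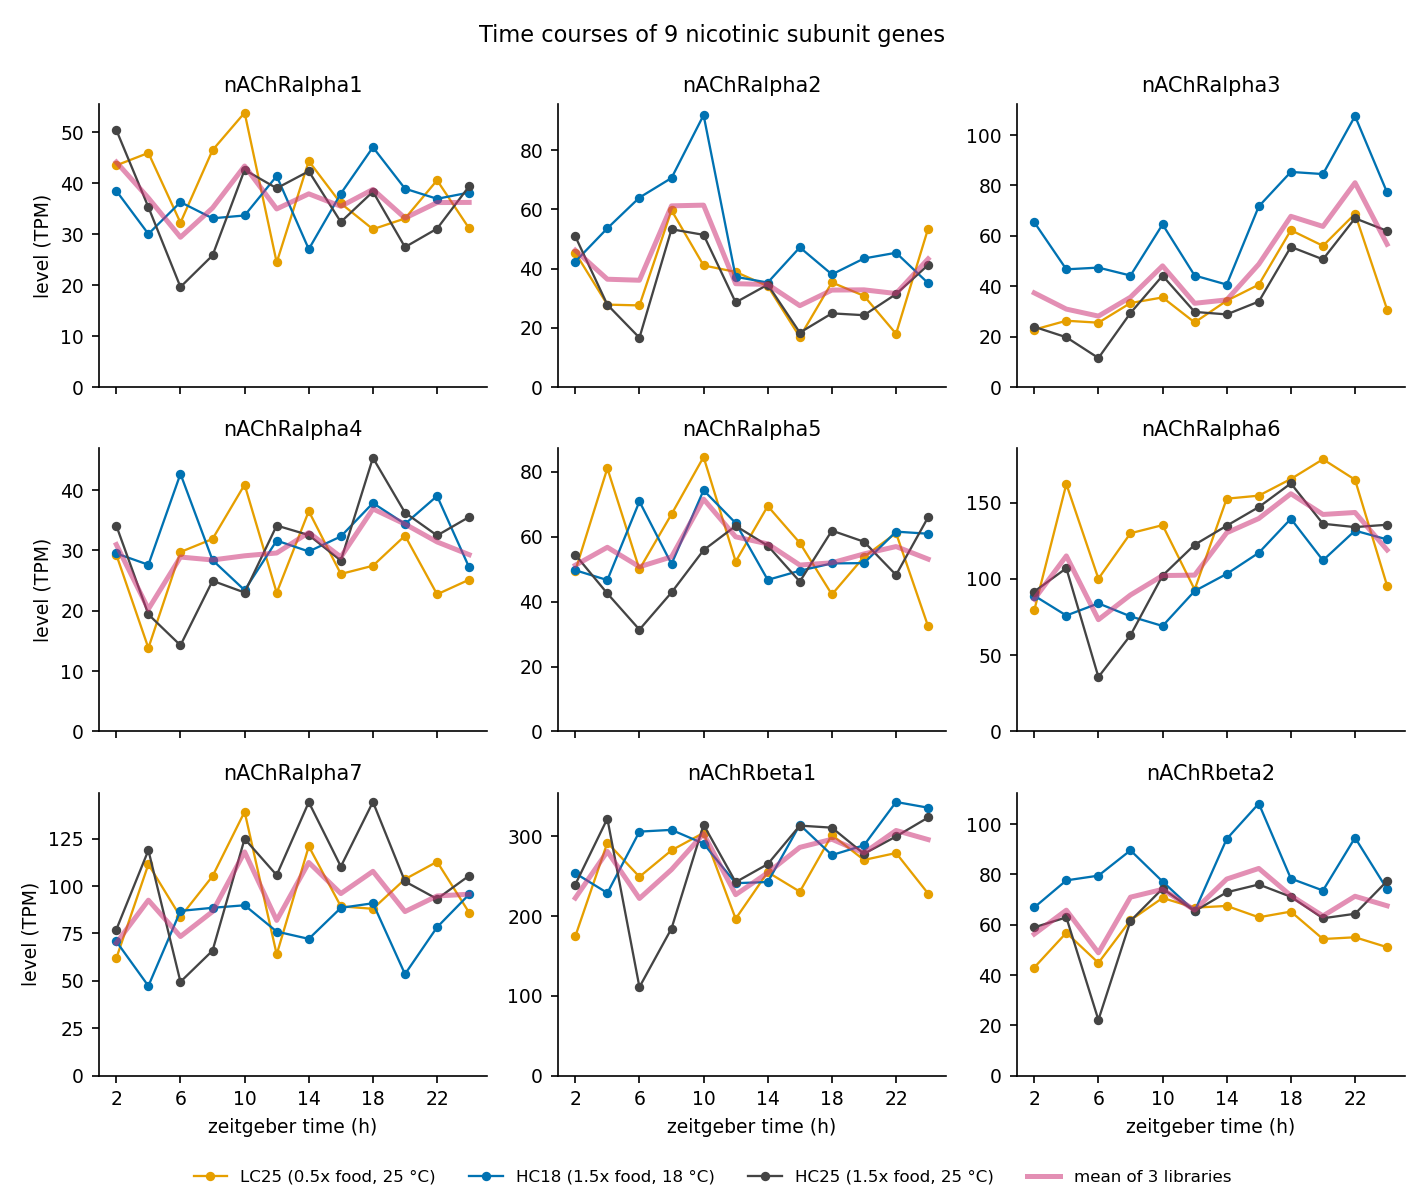
Level in TPM of the 9 measured subunit genes at the 12 zeitgeber times in LC25, HC18 and HC25, 1 library per point, with the mean of the 3 libraries of each time as a broad line. nAChRalpha3 and nAChRalpha6 are highest between ZT18 and ZT22, and the HC25 library of ZT06 is the lowest of its condition in every panel.

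Within single conditions the same fit called 2 subunits in HC25, 0 in LC25 and 0 in HC18, where the background over all genes was 8.45% in HC25, 6.14% in LC25 and 5.52% in HC18. nAChRalpha3 had an amplitude of 0.54 in LC25 (limma adjusted p = 0.105), 0.51 in HC18 (0.155) and 0.69 in HC25 (0.0158). nAChRalpha6 had 0.28 in LC25 (adjusted p = 0.411), 0.42 in HC18 (0.130) and 0.66 in HC25 (0.00239). The fitted peaks lay from ZT18.8 to ZT21.0 for nAChRalpha3 and from ZT17.4 to ZT19.6 for nAChRalpha6. No subunit's rhythm was called different between conditions: the limma test of the difference called 0 subunits for LC25 against HC25, HC18 against HC25 and HC18 against LC25, where it called 0%, 0% and 0.0116% of all genes. With so few calls over all genes, this does not show that the rhythms were alike. At an unadjusted p below 0.05 the first of these tests gave 2 subunits, nAChRalpha4 and nAChRalpha5, and 355 of 8649 genes. The other tests gave 0 subunits, with 316 genes for HC18 against HC25 and 231 for HC18 against LC25. The HC25 call of nAChRalpha3 was lost without ZT06 (adjusted p = 0.124) or ZT22 (0.052), with a range from 0.00177 to 0.167 over 44 alternatives. nAChRalpha4, with an amplitude of 0.46 in HC25 (0.0583), was called there without any single library out of 6, with adjusted p-values from 0.0271 to 0.0492: LC25 at ZT04 or ZT12, HC18 at ZT06, and HC25 at ZT02, ZT12 or ZT16. nAChRalpha6 was called within HC18 without HC25 at ZT06 (0.0304). Without the HC25 libraries of ZT06 and ZT08 and the HC18 library of ZT24, which stood apart from the rest, no subunit was called within HC25 and nAChRalpha6 was called within HC18 (adjusted p = 0.0344).

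The authors' deposited table of BooteJTK, a rank test for rhythms, held 9 of the subunits. For the 25 °C libraries the authors' deposited table gave adjusted p-values of 0.0189 for nAChRalpha3, 0.0245 for nAChRalpha6 and 0.0463 for nAChRbeta2, and 863 of its 7991 genes lay below 0.05. For all libraries the authors' deposited table gave 0.0013 for nAChRalpha6, 0.00389 for nAChRalpha3 and 0.0378 for nAChRalpha2, and 1817 of its 7864 genes lay below 0.05. Over all libraries the mean phases in the authors' deposited table were 23.6 h for nAChRalpha3, 17.6 h for nAChRalpha6 and 10 h for nAChRalpha2. The shared fit above had its peaks at ZT19.6, ZT18.5 and ZT6.81 for these genes. For nAChRbeta2 the deposited phase was 10 h at 25 °C and 16.7 h over all libraries, and the fitted peak was ZT15.7. How the deposited phase relates to the fitted peak was not tested.

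After removal of each condition's mean, the libraries in which nAChRalpha3 was high tended to be those in which nAChRalpha6 was high, with a Pearson correlation of 0.74 over 36 libraries. nAChRalpha6 correlated at 0.80 with nAChRbeta1, at 0.69 with nAChRalpha7 and at -0.29 with nAChRalpha2. Among 6530 genes with a mean of at least 5 TPM, those most like nAChRalpha3 were CG32264 (0.91), mtt (0.90), simj (0.90), HDAC4 (0.89) and CG8405 (0.89). Those most like nAChRalpha6 were Cam (0.88), PAN3 (0.86), CG17124 (0.84), NK7.1 (0.84) and Teh1 (0.83). These libraries share their time points and their scaling to a fixed total, so the correlations describe these libraries only.

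In HC18 neurons 3 subunits were higher than in HC25 neurons, namely nAChRalpha3, nAChRalpha2 and nAChRbeta2. No subunit was called lower, but nAChRalpha7 and nAChRalpha6 were called lower under some alternatives, whose values follow. The low share of mitochondrially encoded transcripts in HC18 given above moves with this comparison, and its part in the result was not tested. The comparison asks what a lower temperature does on the same food, from 12 time-matched differences. Of all genes tested 8.22% were called, 5.92% higher and 2.3% lower in HC18. The median difference was 0.13 over the 9 subunits and 0.04 over all genes on the log2(TPM + 1) scale, which understates changes of low genes.

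nAChRalpha3 ranged from 40.7 to 108 TPM in HC18 (median 65.0), against 11.5 to 67.0 TPM in HC25 (median 31.9). The ranges of the 2 conditions overlapped, and at matched times HC18 was higher at 12 of 12 time points. The difference was 0.84 ± 0.13 on the log2 scale (SE, n = 12 each), a 1.79-fold higher level (limma adjusted p = 0.000137). Its share of the summed subunit TPM was 8.15% ± 2.01 in HC18 and 5.02% ± 1.71 in HC25 (SD, n = 12 each). This call held in each of 44 alternatives, with adjusted p-values from 2.64e-05 to 0.0228. Exons of nAChRalpha3 share 251 nt with CG1636 on the opposite strand, a gene at 26.5 TPM, and the part of those reads was not tested.

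nAChRalpha2 ranged from 35.1 to 91.8 TPM in HC18 (median 44.4), against 16.7 to 53.3 TPM in HC25 (median 30.01). It was higher in HC18 at 10 of 12 time points, by 0.60 ± 0.16 on the log2 scale (SE, n = 12 each) or 1.51-fold (limma adjusted p = 0.0154). The highest HC18 values were those of ZT06, ZT08 and ZT10, all among the 4 libraries low in fmt. nAChRalpha2 averaged 68.0 ± 19.2 TPM in those 4 (SD, n = 4) and 41.5 ± 6.47 TPM in the other 8 HC18 libraries (SD, n = 8). These sets also differ in time of day. In LC25 the gene stood at 27.6 TPM at ZT06, 59.7 TPM at ZT08, its highest, and 41.1 TPM at ZT10. In HC25 it stood at 16.7 TPM, 53.3 TPM, its highest, and 51.4 TPM at the same times. The part of time of day in the contrast of the 4 and the other 8 libraries was not tested. Without the 4 libraries the difference was 0.41 (adjusted p = 0.24). The call was also lost in a fit with no time point term (adjusted p = 0.0727), and the range over 44 alternatives was from 0.00407 to 0.24.

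nAChRbeta2 ranged from 65.4 to 108 TPM in HC18 (median 78.0), against 22.2 to 77.4 TPM in HC25 (median 64.9). HC18 was higher at 10 of 12 time points, by 0.38 ± 0.12 on the log2 scale (SE, n = 12 each), a 1.30-fold higher level (limma adjusted p = 0.0367). The call lay close to the threshold. It was lost without any single HC18 library of ZT04, ZT06, ZT08, ZT14, ZT16, ZT20 or ZT22 and without any single HC25 library of ZT04, ZT08 or ZT14, with adjusted p-values up to 0.0771. It was lost as well without the 4 HC18 libraries low in fmt (difference 0.27, adjusted p = 0.26), without the 3 libraries that stood apart (0.26, 0.0547), after rescaling without Pdf, fmt, trol and mitochondrial transcripts (0.34, 0.123), with no trend in the prior (0.0513) and with no time point term (0.0875), with a range from 0.00736 to 0.26 over 44 alternatives.

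The other 6 subunits did not pass. nAChRalpha7 ranged from 47.4 to 95.6 TPM in HC18 (median 82.6), against 49.5 to 144 TPM in HC25 (median 106). Its difference was -0.37 ± 0.14 (SE, n = 12 each), and HC18 was the higher condition at 2 of 12 time points (limma adjusted p = 0.102). It was called without HC25 at ZT06 (difference -0.46, adjusted p = 0.0253), without the 3 libraries that stood apart (-0.59, 0.00329) and under a rescaling by the median ratio (-0.44, 0.0283), within a range from 0.00329 to 0.207 over 44 alternatives. nAChRalpha6 had a difference of -0.11 and was likewise higher in HC18 at 2 of 12 time points (limma adjusted p = 0.651). Without the 3 libraries that stood apart its difference was -0.34 and was called (0.0372), within a range from 0.0372 to 0.828. The differences of nAChRalpha1, nAChRalpha4, nAChRalpha5 and nAChRbeta1 lay between 0.08 and 0.14, with 95% intervals that included 0.

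HC18 neurons differed from LC25 neurons in both food and temperature, and the same 3 subunits were higher there. Of all genes tested 9.67% were called, with 7.01% higher and 2.66% lower in HC18, and both comparisons of HC18 share the HC18 libraries. nAChRalpha3 had a median of 65.0 TPM in HC18 and ranged from 22.8 to 68.8 TPM in LC25 (median 33.8), and HC18 was higher at 12 of 12 time points, by 0.76 ± 0.13 (SE, n = 12 each; limma adjusted p = 0.000329). nAChRbeta2 had a median of 78.0 TPM in HC18 and ranged from 43.0 to 70.7 TPM in LC25 (median 59.3), and HC18 was higher at 11 of 12, by 0.48 ± 0.12 (adjusted p = 0.0084; 0.11 when the 4 low-fmt HC18 libraries were left out and 0.11 after rescaling without Pdf, fmt, trol and mitochondrial transcripts, with a range from 0.000206 to 0.11). nAChRalpha2 had a median of 44.4 TPM in HC18 and ranged from 16.9 to 59.7 TPM in LC25 (median 34.7), and HC18 was higher at 9 of 12, by 0.51 ± 0.16 (adjusted p = 0.0372). This last call was lost without any single LC25 library of ZT04, ZT10, ZT16 or ZT22 or HC18 library of ZT04, ZT06, ZT10, ZT16, ZT20 or ZT22, with adjusted p-values up to 0.0869. It was lost as well without the 4 HC18 libraries low in fmt (difference 0.32, 0.369) and after rescaling without Pdf, fmt, trol and mitochondrial transcripts (0.37, 0.161), with no filter on low values (0.0608), no trend in the prior (0.0527) and no time point term (0.122), and its range over 44 alternatives was from 0.00491 to 0.369. nAChRalpha6 had a difference of -0.39 ± 0.14 (limma adjusted p = 0.0632) and was higher in HC18 at 2 of 12 time points. It was called without the LC25 libraries of ZT02 (0.0465), ZT12 (0.0373) or ZT24 (0.0258), the HC18 libraries of ZT06 (0.0332) or ZT24 (0.0427) or the HC25 library of ZT06 (0.0156), after that rescaling (-0.53, 0.0343), under the median ratio (-0.48, 0.00574) and without the 3 libraries that stood apart (-0.44, 0.00372), within a range from 0.00372 to 0.199. nAChRalpha7 had a difference of -0.30 ± 0.14 (0.178) and was called lower in HC18 without the 3 libraries that stood apart (0.0418) and under the median ratio (0.0495), within a range from 0.0418 to 0.344.

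LC25 neurons did not differ from HC25 neurons in any subunit past the threshold. The comparison asks what a poorer food does at the same temperature, and limma called 0 subunits and 0% of all genes. At an unadjusted p below 0.05, 453 genes and 1 subunit passed. That subunit was nAChRalpha6, which ranged from 79.4 to 178 TPM in LC25 (median 144), against 35.7 to 163 TPM in HC25 (median 128). Its difference was 0.28 ± 0.14, with a 95% interval from 0.00025 to 0.56, and LC25 was higher at 9 of 12 time points (limma adjusted p = 0.947). For the other 8 tested subunits the differences lay between -0.10 and 0.14, and the 95% intervals reached from -0.37 to 0.41 at the widest.

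**Figure D3:**
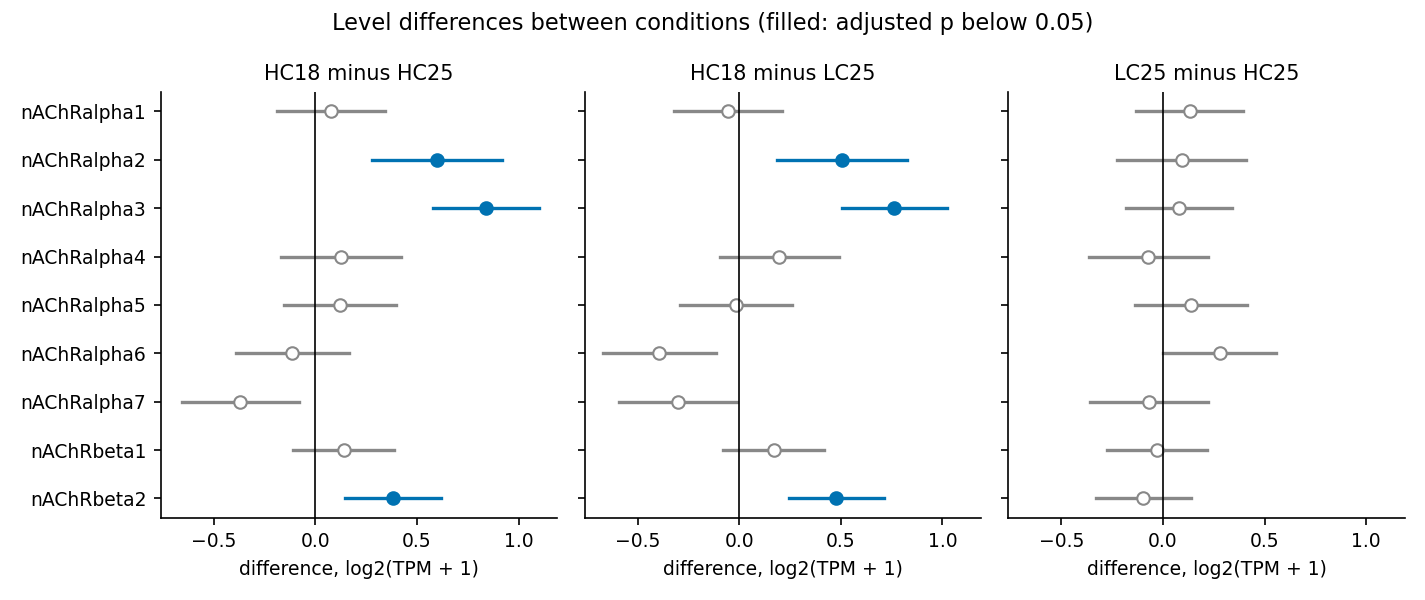
Difference of each subunit on the log2(TPM + 1) scale with its 95% confidence interval for HC18 minus HC25, HC18 minus LC25 and LC25 minus HC25, where filled points have a limma adjusted p below 0.05. nAChRalpha3, nAChRalpha2 and nAChRbeta2 are filled in both comparisons of HC18, and no point is filled between LC25 and HC25.

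At the level of single transcripts 23 models of these genes had a mean of at least 1 TPM. Of these, 4 passed the shared rhythm test, namely nAChRalpha3-RC, nAChRalpha6-RA, nAChRalpha6-RG and nAChRalpha6-RC, where 13.4% of all 14167 transcripts did. nAChRalpha6-RG had the largest amplitude of the 4, 0.62 ± 0.12 (SE, n = 36; limma adjusted p = 0.00108). nAChRalpha6-RC was lost without the 4 HC18 libraries low in fmt (0.0549). For HC18 against HC25, 3 models were called higher in HC18, where 4.76% of all transcripts were called, 3.17% higher and 1.6% lower. They were nAChRalpha2-RB, with a difference of 0.61 ± 0.17 (limma adjusted p = 0.0402), nAChRalpha3-RC, with 0.56 ± 0.16 (0.0475), and nAChRalpha3-RB, with 2.42 ± 0.59 (0.019). The size of the last rests on the pseudocount, and was 4.53 with a pseudocount of 0.1, since that model is listed at 0 in 9 HC25 libraries. The call of nAChRalpha3-RC was lost with a pseudocount of 0.1 (0.0504) and under the median ratio (0.0636). The median ratio also called nAChRbeta2-RA higher (0.32, 0.0194) and nAChRalpha7-RD lower in HC18 (-0.61, 0.036). Without the 4 HC18 libraries low in fmt no model was called, with 0.44 for nAChRalpha2-RB (0.381), 0.70 for nAChRalpha3-RC (0.0757) and 2.06 for nAChRalpha3-RB (0.237). For HC18 against LC25, 5 models were called higher in HC18, where 6.93% of all transcripts were called, 4.56% higher and 2.37% lower. They were nAChRbeta2-RA, with a difference of 0.49 ± 0.12 (limma adjusted p = 0.0181), nAChRalpha7-RA, with 1.42 ± 0.41 (0.0352), nAChRalpha3-RB, with 2.01 ± 0.59 (0.0389), nAChRalpha5-RB, with 1.59 ± 0.47 (0.0416), and nAChRalpha3-RC, with 0.54 ± 0.16 (0.0477). Without the 4 libraries none of the 5 was called, with adjusted p-values of 0.161 for nAChRbeta2-RA, 0.25 for nAChRalpha7-RA, 0.315 for nAChRalpha3-RB, 0.449 for nAChRalpha5-RB and 0.0766 for nAChRalpha3-RC. With a pseudocount of 0.1 only nAChRbeta2-RA was called. The median ratio called nAChRalpha5-RD (-0.53, 0.0454), nAChRalpha6-RA (-0.44, 0.0107) and nAChRalpha7-RD (-0.64, 0.0238) lower in HC18. For LC25 against HC25 limma called 0 models and 0% of all transcripts. At an unadjusted p below 0.05, 3 models passed. nAChRalpha6-RA (0.34) and nAChRalpha7-RE (0.92) were higher in LC25, and nAChRalpha7-RA (-0.90) was lower. The share of all transcripts at that cutoff is not given, so these 3 are not read as a result.

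nAChRalpha3-RB and nAChRalpha3-RC code for the same 795 residues and differ at the 3′ end. nAChRalpha3-RB has a 3′ untranslated region of 159 nt and nAChRalpha3-RC of 6757 nt. nAChRalpha3-RB ranged from 0 to 17.7 TPM in LC25 (median 0.841), from 0 to 48.2 TPM in HC18 (median 9.13) and from 0 to 16.8 TPM in HC25 (median 0). It was listed at 0 in 4 LC25, 1 HC18 and 9 HC25 libraries. nAChRalpha3-RC ranged from 20.5 to 66.8 TPM in LC25 (median 32.2), from 28.5 to 77.2 TPM in HC18 (median 47.7) and from 11.5 to 55.6 TPM in HC25 (median 31.9). The long model thus carried most of the gene's TPM in each condition, with 85.9% over all libraries.

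A proximal and a distal 3′ end behind the same stop codon, more than 500 nt apart, were annotated and expressed for 4 subunits and for 587 genes in all. This measure was added after the transcript values had been seen. In nAChRalpha5, nAChRalpha5-RB with a 3′ untranslated region of 177 nt and nAChRalpha5-RH with 3465 nt count as proximal, and nAChRalpha5-RD with 5083 nt as distal. The share of TPM with the proximal end ranged from 3.91 to 23.8% in LC25 (median 8.01), from 8.86 to 72.6% in HC18 (median 23.3) and from 1.31 to 39.9% in HC25 (median 11.97). HC18 held the highest values, and the 3 conditions overlapped.

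For nAChRalpha7 the proximal share ranged from 0 to 14.1% in LC25 (median 6.14), from 3.60 to 43.9% in HC18 (median 15.5) and from 0.618 to 21.4% in HC25 (median 11.3). For nAChRalpha3 it had medians of 1.92% in LC25, 16.9% in HC18 and 0% in HC25. nAChRalpha6 differed in that most of its TPM had the proximal end in every library, between 53.8 and 78.1%.

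The log2 ratio of proximal over distal TPM was higher in HC18 than in HC25 by 1.43 ± 0.46 for nAChRalpha5 (limma adjusted p = 0.0390 over 587 genes). It differed by 1.87 ± 0.68 for nAChRalpha3 (0.0616; 3.96 and 0.0332 with a pseudocount of 0.1), by 1.08 ± 0.46 for nAChRalpha7 (0.104) and by 0.34 ± 0.14 for nAChRalpha6 (0.0863). Of the 4 subunits 1 was called, where 15.8% of the 587 genes were called, 14.1% higher and 1.7% lower, and the median over all of them was 0.37. nAChRalpha3 was called without HC18 at ZT24 (0.00699), HC25 at ZT24 (0.0441) or LC25 at ZT10 (0.0457), ZT18 (0.0489) or ZT24 (0.0477), within a range from 0.00699 to 0.476 over 39 alternatives. nAChRalpha6 was called without HC18 at ZT24 (0.0317), within a range from 0.0282 to 0.539. Against LC25 the ratio was higher in HC18 for nAChRalpha5, by 1.89 ± 0.46, and for nAChRalpha7, by 1.94 ± 0.46 (limma adjusted p = 0.00782 for each). There 24.4% of the 587 genes were called, 23% higher and 1.36% lower, and the median over all of them was 0.42. nAChRalpha3 differed by 1.48 ± 0.68 (0.11) and was called without LC25 at ZT18 (0.0445) or ZT24 (0.0412) or HC18 at ZT24 (0.0107), within a range from 0.0107 to 0.588. Between LC25 and HC25 no subunit and 0% of the genes were called by limma, and no subunit passed at an unadjusted p below 0.05. No subunit's ratio had a shared 24 h rhythm past the threshold, where 2.04% of the 587 genes did, and nAChRalpha6 passed at an unadjusted p below 0.05 (0.0278).

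The 4 HC18 libraries low in fmt moved with this measure. The proximal share of nAChRalpha5 averaged 51.2% ± 17.4 in them (SD, n = 4) and 19.7% ± 6.16 in the other 8 HC18 libraries (SD, n = 8). That of nAChRalpha3 averaged 34.5% ± 19.3 in the 4 and 13.1% ± 9.26 in the other 8, and that of nAChRalpha7 28.1% ± 15.9 in the 4 and 13.97% ± 7.05 in the other 8. The median share over all 587 genes averaged 40.8% in those 4 libraries, 26.8% in the other 8, 21.8% in LC25 and 22.8% in HC25. Without the 4 libraries no subunit was called, with a difference of 0.80 for nAChRalpha5 between HC18 and HC25 (adjusted p = 0.453, the highest of 39 alternatives, of which the lowest was 0.0167). Against LC25 the values without them were 1.26 for nAChRalpha5 (0.167) and 1.78 for nAChRalpha7 (0.105). The HC25 call of nAChRalpha5 was also lost without any single library out of 14, 6 of HC18 and 8 of HC25, with adjusted p-values up to 0.0894. The part of RNA quality in this measure was not tested.

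**Figure D4:**
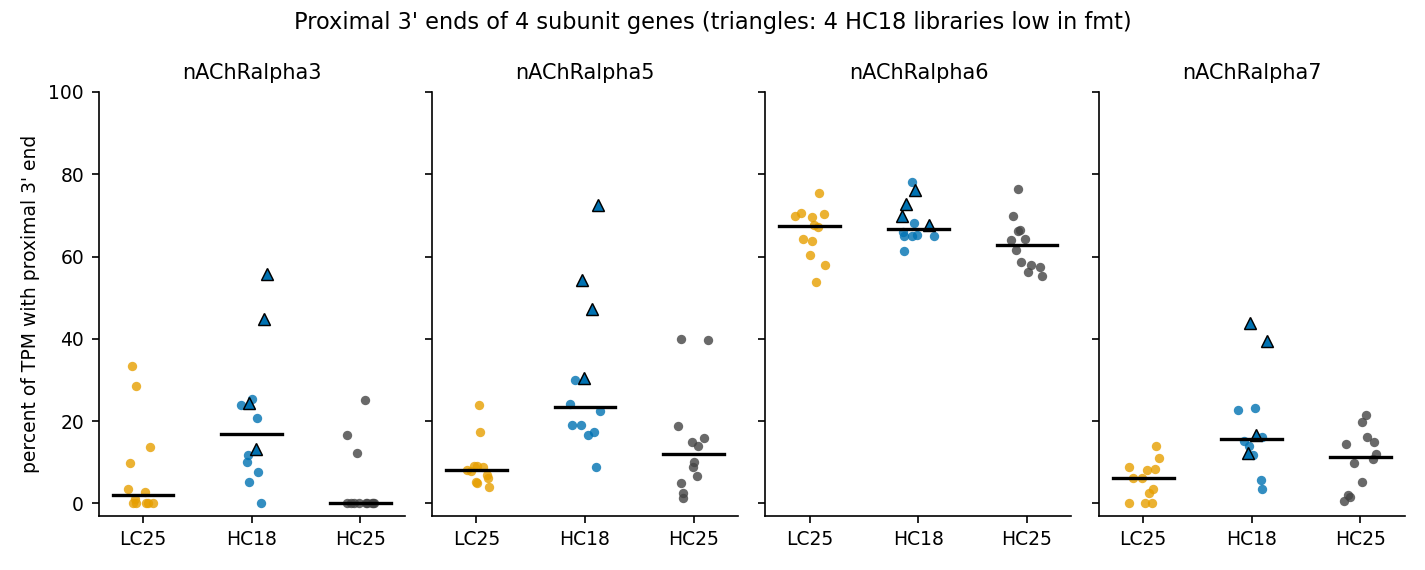
Percent of TPM in transcripts with the proximal 3′ end for 4 subunit genes in LC25, HC18 and HC25, with points for libraries, black bars for medians and triangles for the 4 HC18 libraries low in fmt. The triangles include the highest values of nAChRalpha3, nAChRalpha5 and nAChRalpha7, and nAChRalpha6 lies above 50% in each library.

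Other genes of cholinergic transmission and of the Ly6 family gave further values. Of 16 such genes 15 were tested and 5 passed the shared rhythm test, where 23.9% of all genes passed. Their median amplitude was 0.28, against 0.20 over all genes. mAChR-B, a muscarinic receptor coupled to G proteins, ranged from 1.75 to 12.5 TPM in LC25, from 2.44 to 36.1 TPM in HC18 and from 2.06 to 28.1 TPM in HC25. Its lowest value lay at ZT12 in each condition, and its fitted amplitude was 1.05 ± 0.13 (SE, n = 36) with a peak at ZT22.5 (limma adjusted p = 6.91e-08). mAChR-A had a mean of 20.5 TPM and did not pass (0.309), and mAChR-C was listed at 0 in 27 of 36 libraries and was not tested.

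The Ly6 family includes small membrane-anchored proteins, some of which bind nicotinic receptors. CG9338, of that family, had an amplitude of 2.62 ± 0.25 and a peak at ZT8.34 (limma adjusted p = 3.76e-10). Also of that family, twit had 1.47 ± 0.12 and a peak at ZT5.44 (1.15e-11), and bero had 1.38 ± 0.22 and a peak at ZT4.83 (2.73e-05). The fifth gene that passed was ChT, the choline transporter gene, with 0.38 ± 0.08 and a peak at ZT11.8 (0.00134). qvr (sleepless), a Ly6 gene whose protein acts on nicotinic receptors, did not pass (amplitude 0.19, 0.118). Nor did crim (0.09, 0.615), crok (0.31, 0.118), bou (0.36, 0.0768) and rtv (0.15, 0.757). RIC-3, a chaperone of receptor assembly, had an amplitude of 0.14 (0.300) at a mean of 65.7 TPM, and Ace, the acetylcholinesterase gene, 0.15 (0.241) at 69.7 TPM.

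The median difference of HC18 minus HC25 over the 15 genes was 0.27. In that comparison CG9338 was the 1 gene called, higher in HC18 by 1.43 ± 0.37 (SE, n = 12 each; limma adjusted p = 0.0149), where 8.22% of all genes were called. With the 4 low-fmt HC18 libraries left out, the difference was 1.16 and was not called (0.145), within a range from 0.00362 to 0.348 over 44 alternatives. qvr had a difference of 0.37 ± 0.12 (0.0502). Against LC25, 4 were higher in HC18 and 0 lower: CG9338 by 1.98, mAChR-B by 0.67, ChAT by 0.48 and qvr by 0.44, with limma adjusted p-values from 0.00106 to 0.0188, where 9.67% of all genes were called. Without the 4 libraries ChAT (0.102) and qvr (0.172) were not called, nor after rescaling without Pdf, fmt, trol and mitochondrial transcripts (0.159 for ChAT and 0.165 for qvr). With no time point term CG9338 (0.16), mAChR-B (0.279) and ChAT (0.0989) were not called. For LC25 against HC25, limma called 0 of the 15, and at an unadjusted p below 0.05 mAChR-B had a difference of -0.40 (unadjusted p = 0.0136) and crim of -0.32 (0.0142). ChAT, which makes acetylcholine, averaged 40.5 ± 10.7 TPM in LC25, 56.9 ± 15.3 TPM in HC18 and 46.2 ± 17.7 TPM in HC25 (SD, n = 12 each), with a shared amplitude of 0.28 (0.0683). VAChT, the vesicular acetylcholine transporter gene, had an amplitude of 0.26 (0.0611).

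Other ligand-gated channels were read beside the nicotinic subunits. Of 12 further Cys-loop genes, which encode mostly anion channels, 8 were tested and 2 passed the shared rhythm test, where 23.9% of all genes passed. They were HisCl1, a histamine-gated channel gene, with an amplitude of 0.38 ± 0.11 and a peak at ZT21.2 (limma adjusted p = 0.0319), and CG8916, with 0.54 ± 0.16 and a peak at ZT21.4 (0.0325). In HC18 against HC25, where 8.22% of all genes were called, Lcch3, a GABA receptor subunit gene, was the 1 gene called, higher by 0.36 ± 0.11 (0.0325; 0.298 without the 4 HC18 libraries low in fmt and 0.114 after the rescaling). Against LC25, where 9.67% of all genes were called, CG8916 was higher in HC18 by 0.77 ± 0.24 (0.0429) and HisCl1 lower, with a difference of -0.62 ± 0.20 (0.0493). Without the 4 libraries the adjusted p was 0.274 for CG8916 and 0.15 for HisCl1, and 0.0763 for the rhythm of CG8916. Each of these rhythm and level calls of HisCl1, CG8916 and Lcch3 was also lost in several of the fits without 1 library. Of 13 ionotropic glutamate receptor genes 8 were tested. Nmdar2, an NMDA receptor subunit gene, passed the shared rhythm test with an amplitude of 0.28 ± 0.07 and a peak at ZT2.44 (0.0152). KaiR1D, a kainate-type subunit gene, was higher in HC18 than in LC25 by 0.40 ± 0.12 (0.0252; 0.219 without the 4 HC18 libraries and 0.208 after the rescaling), and no gene of that list was called for HC18 against HC25. The shares over all genes were again 9.67% against LC25 and 8.22% against HC25. The median difference of HC18 minus HC25 was -0.15 over the Cys-loop genes, -0.16 over the glutamate receptor genes and 0.13 over the nicotinic subunits, and no test was made between lists.

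Subunit transcripts are found in most neurons, so markers of other neurons bear on these levels. The 12 transmitter markers of other neurons, ChAT and VAChT among them, summed to 626 to 1291 TPM in LC25, 556 to 1041 TPM in HC18 and 526 to 1339 TPM in HC25. The medians of these sums were 979 TPM in LC25, 863 TPM in HC18 and 1126 TPM in HC25. VGlut, the glutamate transporter gene, stayed at or below 1.02 TPM in LC25, 0.691 TPM in HC18 and 2.51 TPM in HC25, and Gad1, the GABA synthesis gene, had a highest value of 31.6 TPM in LC25, 19.8 TPM in HC18 and 19.2 TPM in HC25. ChAT averaged 47.9 TPM and VAChT 19.6 TPM over all libraries. Most of each sum thus came from other markers of the list, whose values are not given here. For HC18 against HC25, 0 of 11 tested transmitter markers and 0 of 8 neuron markers were called, where 8.22% of all genes were called. Against LC25, 1 transmitter marker was higher (ChAT) and 1 neuron marker was lower (Syn, by limma a difference of -0.53, adjusted p = 0.0041), where 9.67% of all genes were called. In the shared rhythm 3 of 11 transmitter markers and 1 of 8 neuron markers passed, where 23.9% of all genes passed. The 8 Kenyon cell markers summed to at most 1823 TPM in LC25, at ZT18, 1490 TPM in HC18, at ZT22, and 1969 TPM in HC25, at ZT22, with medians of 855 TPM in LC25, 888 TPM in HC18 and 867 TPM in HC25. Of them 3 passed the shared rhythm test, led by sNPF with a peak at ZT21.4, a gene that small LNv neurons also express, and Mef2 with a peak at ZT18.2. In the libraries with those highest sums sNPF alone stood at 1218 TPM in LC25, 827 TPM in HC18 and 1464 TPM in HC25. Summed over its models, nAChRalpha3 had its highest level at ZT22 in each condition, and a link with these markers was not tested. The Kenyon cell marker toy was higher in HC18 than in HC25 (difference 0.44, limma adjusted p = 0.0225) and LC25 (0.42, 0.0262). It was the 1 of the 8 markers called against HC25, where 8.22% of all genes were called. Against LC25 1 other marker was called lower, where 9.67% of all genes were called. The median difference over the 8 was 0.15 against HC25 and 0.0073 against LC25. Markers of other clock neurons summed to a median of 426 TPM in HC18, against 898 TPM in LC25 and 1044 TPM in HC25. Of 6 tested, 1 was higher and 1 lower in HC18 in either comparison, where 8.22% of all genes were called against HC25 and 9.67% against LC25. Of 5 tested fat body markers, 2 were called lower in HC18 than in HC25, where 2.3% of all genes were called lower. Against LC25 0 were called, where 9.67% of all genes were called. The part of other neurons and of fat body in the subunit levels was not tested.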

How the data were processed

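Transcript levels were measured by RNA-seq in 36 libraries of sorted LNv neurons. Quantification was with kallisto, per the submitters' processing notes. The version, and the build and annotation of the transcripts, are not stated in the sources used here. The authors deposited TPM per transcript, which sum to 1000000 in each library and carry no depth, so no counting interval is given. Their deposited BooteJTK tables hold mean TPM, a score, a mean phase, p-values and adjusted p-values, per the file headers. Transcripts were assigned to genes by the Ensembl release 115 annotation, used for names and gene structure only; 30246 of 30485 matched. TPM were summed per gene and tested as log2(TPM + 1) for genes with a mean of at least 1 TPM, with limma 3.58.1 (R 4.3.3; lmFit, eBayes with trend) in Python 3.11.15 and R scripts tested on simulated data. Rhythms were 24 h cosine terms with a mean per condition. Levels were fitted with condition and time point as factors. P-values were adjusted by Benjamini-Hochberg over all features tested and called below 0.05. Alternatives changed the pseudocount, filter, scaling, prior, time term and libraries. All 10 subunits and all 16 other cholinergic genes are named, of other lists up to 4 genes of smallest p, and the 5 genes of highest correlation with each rhythmic subunit. The members, the lists and the libraries left out together were chosen with earlier results of these data known. The alternatives for genes outside the family, for transcripts of HC18 against LC25 and for transcripts without the 4 HC18 libraries were chosen after seeing the data. Sequences were not used here.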

Additional observations from a re-analysis of the deposited data

How the results depend on the processing

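Scaling, prior, filter, pseudocount and the libraries used could each change a value, and the cause of each change below was not tested. For counts of calls under the alternatives, here and above, the share of all features called in the same setting is not given. Such counts therefore describe the settings and are not read as results about the subunits. The shared rhythms of nAChRalpha3 and nAChRalpha6 and the higher level of nAChRalpha3 in HC18 kept their direction and their call in all 44 alternatives. Of 3 subunits called for HC18 against HC25, 1 was left without the 4 HC18 libraries low in fmt and 1 with no time point term. Of 3 called for HC18 against LC25, 1 was left without those 4 libraries, while 5 were called under the median ratio and 5 when 3 libraries that stood apart (HC25 at ZT06 and ZT08, HC18 at ZT24) were left out. Rhythm within HC18 went to 2 subunits under the median ratio, 1 without those 3 libraries and 2 with each condition fitted alone, within HC25 to 0 without those 3 and 0 fitted alone, and within LC25 to 1 under the median ratio. For the 3′ ends, HC18 against HC25 gave 2 with a pseudocount of 0.1, 4 without the 3 libraries and 0 without the 4, and HC18 against LC25 gave 0 without the 4. Of transcripts, 0 were called for HC18 against HC25 without the 4, and for HC18 against LC25 0 without the 4 and 1 with a pseudocount of 0.1. Rescaled without Pdf, fmt, trol and mitochondrial transcripts, nAChRalpha2 and nAChRbeta2 were lost for HC18 against LC25 and nAChRalpha6 was called lower. Leaving out 1 library at a time gave 2 to 4 subunits with a shared rhythm, 0 to 1 within HC18, 1 to 3 within HC25, 2 to 4 for the level of HC18 against HC25, 2 to 4 against LC25, and for the 3′ ends 0 to 3 and 2 to 3. Differences that changed sign were all uncalled. Without the 3 libraries, HC18 minus HC25 was -0.055 for nAChRalpha1, -0.027 for nAChRalpha5 and -0.072 for nAChRbeta1, and LC25 minus HC25 was -0.021 for nAChRalpha3. Rescaled without Pdf, fmt, trol and mitochondrial transcripts, LC25 minus HC25 was 0.015 for nAChRalpha4, 0.022 for nAChRalpha7 and 0.061 for nAChRbeta1. For transcripts, HC18 minus HC25 without the 4 was -0.012 for nAChRalpha7-RE and -0.0032 for nAChRbeta2-RB, and HC18 minus LC25 was -0.090 under the median ratio and -0.10 without the 4 for nAChRbeta1-RA. With 1 library left out, HC18 minus LC25 ranged from -0.13 to 0.0065 for nAChRalpha1 and from -0.11 to 0.054 for nAChRalpha5, and LC25 minus HC25 from -0.019 to 0.15 for nAChRalpha3 and from -0.14 to 0.0092 for nAChRbeta1. The fit of levels pairs libraries by time point, and the fit with no replicate block is the one with no time point term, which left 1 subunit as given above. TPM carry no depth, so precision rests on the number of libraries.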
